A study of Mus musculus with 6 samples.

Results

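Probe sets for the small GTPases Nras, Rras, Rras2 and Mras, the kinases Araf and Braf, and the Ras inhibitor Nf1 were examined in mouse sarcoma cells with and without an intact copy of Dicer1. All probe sets annotated to exactly 1 of these symbols were taken, which gave 25 of the 45037 probe sets on the arrays and 7 of the 8 listed genes. Hras, the eighth, was not analysed here. Affymetrix 3′ arrays were used to measure messenger RNA in 3 samples labelled Dicer Heterozygote and 3 labelled Dicer Null, all from sarcoma cells of strain C57BL6/J, which were grown to confluence without a further treatment. The design text counts 3 cell lines of each genotype, which matches the 3 samples per group, while the titles number them as replicates of a cell line. If they are not separate lines, p-values measure only the spread between these samples, which may be technical. The labels do not say which other alleles the cells of both groups carry.

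Ras proteins are molecular switches at the inner face of the cell membrane that are active when bound to GTP. Exchange factors such as Sos load them with GTP, and GTPase-activating proteins such as neurofibromin, the product of Nf1, return them to the GDP-bound state. Active Ras recruits Raf kinases, which phosphorylate Mek, which in turn phosphorylates Erk, and in sarcomas this cascade can drive growth. Dicer cuts microRNA precursors to their mature form. Ras messenger RNAs are textbook targets of the let-7 family of microRNAs, which the series title names, so the comparison of Dicer null with Dicer heterozygous cells asks whether the messages of this family differ when mature microRNAs cannot be made.

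The let-7 sequences below are shown because the seed, bases 2 to 8, is the part by which these microRNAs recognise a target; it is given in capitals. They are the RefSeq entries of the GRCm38.p6 build, 5′ to 3′. Of 11 mature entries of the family in that table, miR-98 included, 10 share the seed GAGGUAG.
mmu-let-7a-5p: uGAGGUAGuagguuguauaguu
mmu-let-7d-5p: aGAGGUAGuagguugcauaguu
mmu-let-7g-5p: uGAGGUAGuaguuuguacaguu
mmu-miR-98-5p: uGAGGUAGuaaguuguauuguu
These microRNAs were not measured on the arrays, and no target sites were searched.

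The values are log2 GCRMA values per probe set, between 0.4 and 14.18, and a difference of 1 on this scale is a doubling. Probe sets with a mean of at least 3 over the 6 arrays were tested with limma, a linear model with moderated variances. Its p-values were adjusted by the Benjamini-Hochberg method over all 24385 probe sets tested, and an adjusted p under 0.05 counts as a call. Precision is limited by the number of arrays, which was 3 in each group. Correlations between arrays over all probe sets were 0.972 to 0.988 among heterozygous arrays, 0.988 to 0.991 among null arrays and 0.963 to 0.981 between the groups. Neither probe set of Dicer1, the targeted gene, was called (limma adjusted p = 0.693 and 0.573). The brighter gave 8.32 ± 0.24 for heterozygous and 8.46 ± 0.09 for null samples (SD, n = 3 each). Since the deleted part of the gene is not stated, these values do not check the genotype.

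The cells carried high levels of mesenchymal transcripts, with 8 of 9 marker genes above the minimum and Vim, the intermediate filament vimentin, at a mean of 13.8. The mean level of this list was 11.6 in each heterozygous array and 11 to 11.3 in the null arrays, without a shift of the whole list. Differences were below 0 in 6 genes, with S100a4 at -1.37, Pdgfrb at -1.03 and Col1a1 at -0.78, and above 0 in 3, with Col3a1 at 0.17. None of the 8 tested was called by limma. S100a4 came nearest (limma adjusted p = 0.057), and its groups did not overlap. Thy1 was the marker below the minimum, with 4.29 in heterozygous replicate 1 and 1.45 to 1.77 in the other arrays. It raised the mean of the list in that array, so the gap between the groups in this mean rests partly on Thy1. Pdgfrb and Col1a1 read 10.69 and 12.3 in heterozygous replicate 1, below the 10.8 and 12.43 of null replicate 1. S100a4 went the other way, at 12.33 against 11.36. Markers of endothelial cells were all under 3 (6 of 6 genes), as were 6 of 7 leukocyte and 5 of 6 skeletal muscle markers. Of 8 epithelial markers 5 were under 3. The highest was Krt19, with a mean of 7.31. It read 8.92, 7.07 and 4.75 in heterozygous and 8.5, 8.15 and 6.49 in null arrays. The keratin Krt18 set heterozygous replicate 1 apart, at 9.02 there and 2 to 2.68 in the other 5 arrays. With it the mean level of the list was 4.05 in that array and 2.38 to 3.4 in the others. Without it the mean of the other 7 genes was 3.34 in that array and highest in null replicate 2, at 3.5, and the remaining arrays lay between 2.41 and 3.07. Cd68, the highest leukocyte marker, was also highest in heterozygous replicate 1, at 7.13 there and 4.43 to 5.84 in the others. So was Myh3, the highest skeletal muscle marker, at 4.27 there and 2.41 to 3.13 in the others. Vim and Kdr, the highest mesenchymal and endothelial markers, were not highest there, at 13.75 and 2.53.

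Mras was the single member gene called when each gene was represented by its brightest tested probe set: it was 5.62-fold lower in Dicer null cells. That is 1 of 7 member genes, beside 3.46% of all 11425 tested genes. Nras, Rras, Rras2, Araf and Braf were not called in any probe set. For Nf1, the dimmest of 3 probe sets was higher in null arrays and the other probe sets were not called. In all, 3 of the 22 tested member probe sets were called, 2 lower and 1 higher, beside 3.10% of all tested probe sets (1.48% lower and 1.62% higher). Those 3 stand for 2 genes, and the Nf1 probe set reached the minimum mean only through its null arrays, so its entry into the count is not independent of its difference. At an unadjusted p under 0.05 there were 6 of 22, where the share among all tested probe sets was 23.2%. The groups did not overlap in 8 of 22, 4 in each direction, beside 30.9% of all (16.3% higher and 14.6% lower). The median log2 difference of the 22 was 0.11, against 0.03 over all tested probe sets.

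**Figure D1:**
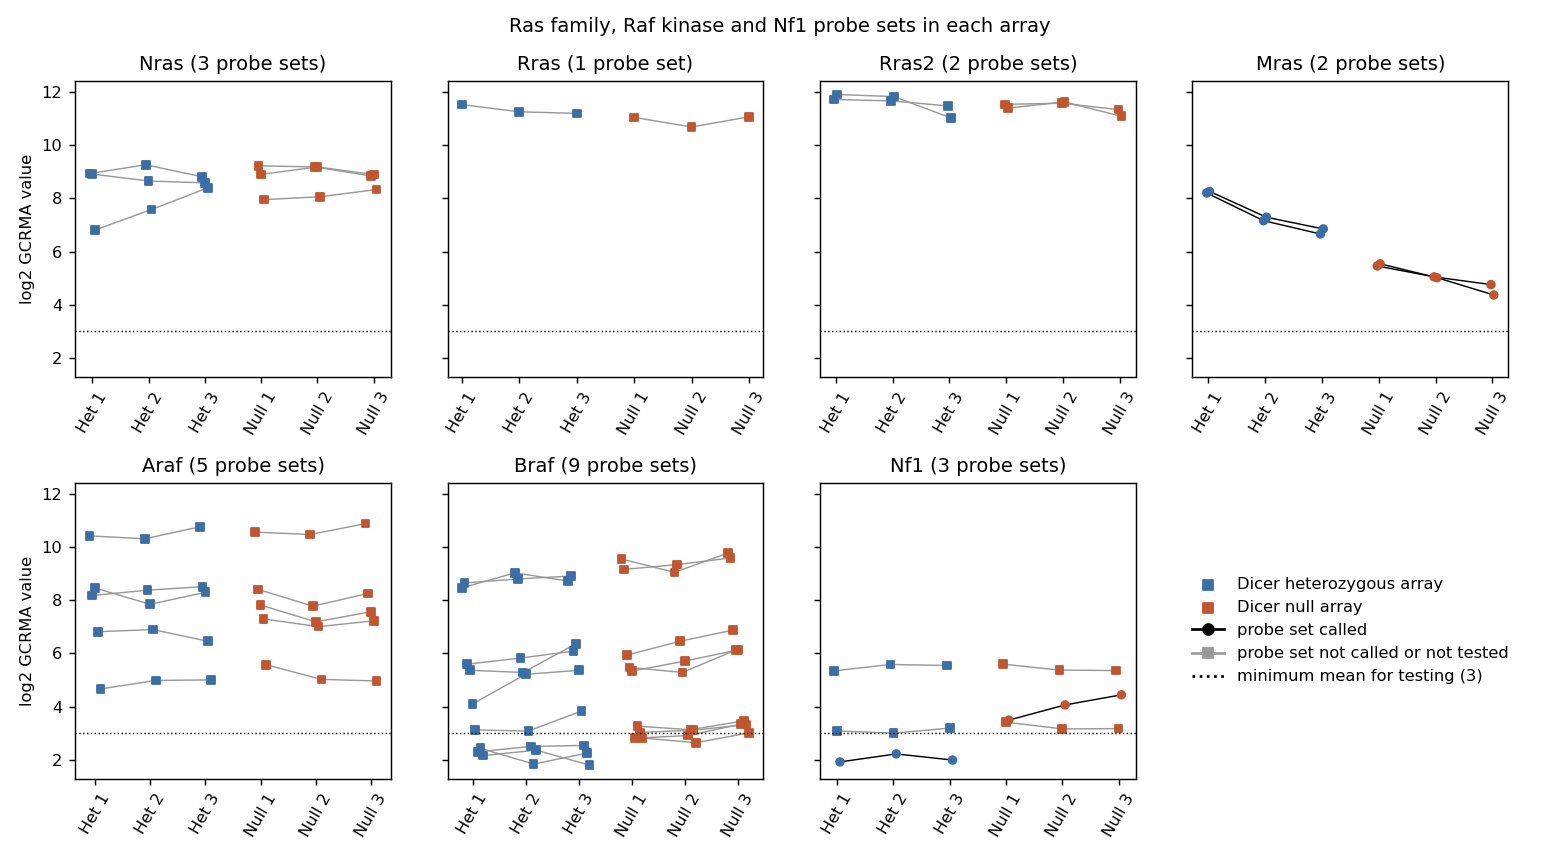
Log2 GCRMA value of every member probe set (y axis) in each of the 6 arrays (x axis; Het, Dicer heterozygous, blue; Null, Dicer null, orange), 1 panel per gene, with lines joining the arrays of a group for 1 probe set and black lines for called probe sets. Both Mras probe sets lie between 6.66 and 8.26 in heterozygous arrays and between 4.37 and 5.54 in null arrays, and the called Nf1 probe set lies below the dotted line at 3 in all heterozygous arrays.

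Mras, also known as the muscle Ras, is a relative of the classical Ras proteins that forms a phosphatase complex with the scaffold Shoc2 and the catalytic subunit of protein phosphatase 1, which removes an inhibitory phosphate from Raf. Its probe set 1453419_at read 8.26, 7.29 and 6.85 in heterozygous replicates 1, 2 and 3 and 5.54, 5.02 and 4.37 in null replicates 1, 2 and 3. The lowest heterozygous value thus lay 1 log2 unit or more above the highest null value. The log2 difference was -2.49 (SE 0.45, 95% interval -3.58 to -1.4, limma adjusted p = 0.047), with 3 of 3 null arrays below all heterozygous ones.

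The second Mras probe set, 1449590_a_at, read 8.2, 7.16 and 6.66 in the heterozygous and 5.46, 5.05 and 4.76 in the null arrays. The highest and lowest array of each group were those of the first probe set, and the groups did not overlap. The log2 difference was -2.25 (SE 0.42, 95% interval -3.27 to -1.23, limma adjusted p = 0.0496), or 4.76-fold. Both probe sets measure the same RNA samples and are no independent replicates of each other. Among the 11425 tested genes, Mras ranked 270 from the lowest difference.

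Both Mras calls lay close to the threshold and the size of the difference was steadier than the call. Without 1 array the log2 difference of 1453419_at was -2.8 to -2.09, and it passed in limma only without heterozygous replicate 3 (adjusted p = 0.0424). The limma adjusted p was 0.0662 without heterozygous replicate 1, 0.12 without heterozygous replicate 2, and 0.0816, 0.144 and 0.148 without null replicates 1, 2 and 3. Heterozygous replicate 1, the array with high Krt18, also had the highest Mras value. Without that array the log2 difference was -2.09. The part that Krt18, other genes high in that array or mesenchymal genes lower in null arrays had in the result was not tested. In such bulk samples, fewer cells with Mras and less Mras RNA per cell cannot be told apart. With no minimum mean the adjusted p in limma was 0.0642. For 1449590_a_at it was 0.0682 with no minimum, 0.0501 after quantile normalization again and 0.0508 with arrays centred on their medians.

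The genes most like Mras were Mustn1, Tgm2 and Tmem8b, by the root mean square distance between log2 values over the 6 arrays after each gene's mean was subtracted. The distances were 0.22 for Mustn1, 0.29 for Tgm2 and 0.32 for Tmem8b, where the median over 11425 genes was 1.37. Mustn1 encodes a small nuclear protein of the musculoskeletal system, and its probe set read 6.97, 5.99 and 5.94 in heterozygous and 3.91, 3.52 and 2.96 in null arrays (log2 difference -2.84, SE 0.37, limma adjusted p = 0.0239). Tgm2, a transglutaminase that crosslinks proteins, read 12.15, 10.49 and 10.74 in heterozygous and 9.21, 8.28 and 8.22 in null arrays, and was not called (limma adjusted p = 0.0548). Tmem8b, a membrane protein, read 8.48, 7.31 and 7.21 and then 6.19, 5.12 and 5.32 (limma adjusted p = 0.0585). In all 4 genes heterozygous replicate 1 was the highest array. These genes were selected for their likeness to Mras, so their differences are a description.

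**Figure D2:**
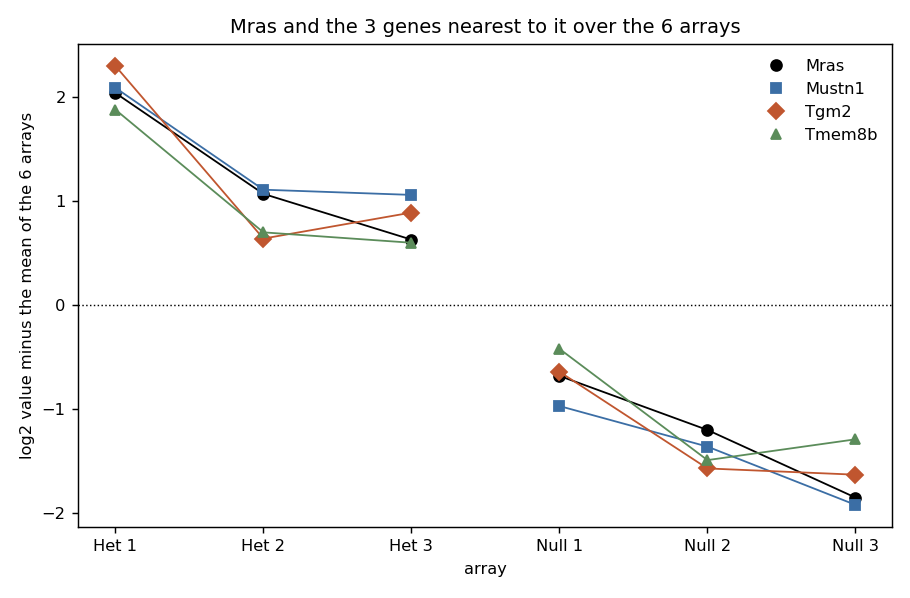
Log2 value minus the mean of the 6 arrays (y axis) in each array (x axis) for Mras and the 3 genes with the smallest root mean square distance to it, with lines joining the arrays of a group. Mras runs from 2.04 in heterozygous replicate 1 to -1.85 in null replicate 3, and all 4 genes are highest in heterozygous replicate 1.

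Nras is the classical Ras protein of this set, with oncogenic forms in many tumours. Its brightest probe set, 1422687_at, read 8.93, 9.26 and 8.81 in heterozygous and 9.22, 9.18 and 8.84 in null arrays. The ranges overlapped almost fully, and the log2 difference was 0.08 (SE 0.2, 95% interval -0.41 to 0.57, limma adjusted p = 0.846). Its sign turned with array weights (-0.1) and without heterozygous replicate 3 (-0.01). Probe set 1422688_a_at gave 0.28 (95% interval -0.16 to 0.71) and 1454060_a_at gave 0.52 (-0.45 to 1.49). In the latter the heterozygous arrays spread widely, at 6.81, 7.58 and 8.39, while the null arrays read 7.95, 8.06 and 8.33. All 3 Nras differences were above 0 and none was called. Doublings of Nras lie outside the intervals of the first and second probe sets and inside that of the third.

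Rras and Rras2 (also TC21) are close relatives of Ras, Rras with a role in integrin-mediated adhesion and Rras2 with transforming activity. Rras had 1 probe set, 1418448_at, which read 11.52, 11.25 and 11.19 in heterozygous and 11.04, 10.68 and 11.06 in null arrays. Every null array lay below every heterozygous one, but the difference was small and not called (-0.39, SE 0.19, 95% interval -0.85 to 0.07, limma adjusted p = 0.274). Rras2 read 11.71, 11.66 and 11.47 against 11.53, 11.57 and 11.33 in its brighter probe set, 1448689_at, where the groups overlapped. Its log2 differences were -0.14 (95% interval -0.53 to 0.26) there and -0.22 (-0.93 to 0.49) in 1417398_at. The difference of Mras lay outside the intervals of all 3 of these probe sets.

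Araf and Braf are kinases that Ras recruits to the membrane to start the Mek and Erk cascade. For Braf, the 2 brightest probe sets had higher values in all null arrays. Probe set 1435480_at read 8.46, 9.02 and 8.71 in heterozygous and 9.54, 9.04 and 9.76 in null arrays, a log2 difference of 0.72 (SE 0.26, 95% interval 0.1 to 1.34, limma adjusted p = 0.169). Probe set 1435434_at read 8.64, 8.79 and 8.9 against 9.15, 9.33 and 9.58, a difference of 0.58 (SE 0.18, 95% interval 0.13 to 1.02, limma adjusted p = 0.135). Neither was called, although the groups did not overlap and both unadjusted intervals exclude 0.

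The other Braf probe sets did not all point the same way. Differences of 0.59 (1425693_at) and 0.83 (1456505_at) stood beside -0.04 (1442749_at) and -0.32 (1445786_at), each with overlapping groups. The sign of 1442749_at turned to above 0 with arrays centred on their medians (0.02), with array weights (0.28), and without heterozygous replicate 3 (0.3), null replicate 1 (0.03) or null replicate 2 (0.13). A further 3 Braf probe sets, 1447940_a_at, 1447941_x_at and 1458641_at, had means of 2.46 to 2.86 and were not tested. In each of them all null arrays lay above all heterozygous ones, with differences of 0.72, 0.98 and 0.84, below the minimum, where values depend on the background model of GCRMA. The 30.9% of probe sets without overlap given above covers tested probe sets only. That share was not counted among untested ones, so these 3 have no background to be set against. Tested with no minimum they were not called either (limma adjusted p = 0.128, 0.0696 and 0.0525).

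Araf had 5 tested probe sets that disagreed in direction. The brightest, 1428607_at, read 10.41, 10.3 and 10.75 in heterozygous and 10.55, 10.46 and 10.87 in null arrays, a log2 difference of 0.14 (SE 0.2, 95% interval -0.35 to 0.63, limma adjusted p = 0.722). Probe set 1440764_at was lower in every null array, at 8.45, 7.84 and 8.29 against 7.81, 7.18 and 7.56 (-0.68, 95% interval -1.28 to -0.07, limma adjusted p = 0.178). Probe set 1435566_s_at was higher in every null array, at 6.81, 6.89 and 6.45 against 7.29, 7 and 7.22 (0.45, 95% interval -0.01 to 0.92, limma adjusted p = 0.223). The remaining 1426602_at and 1445693_at gave -0.21 and 0.3, with overlapping groups. The files do not say which transcripts these probe sets detect.

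**Figure D3:**
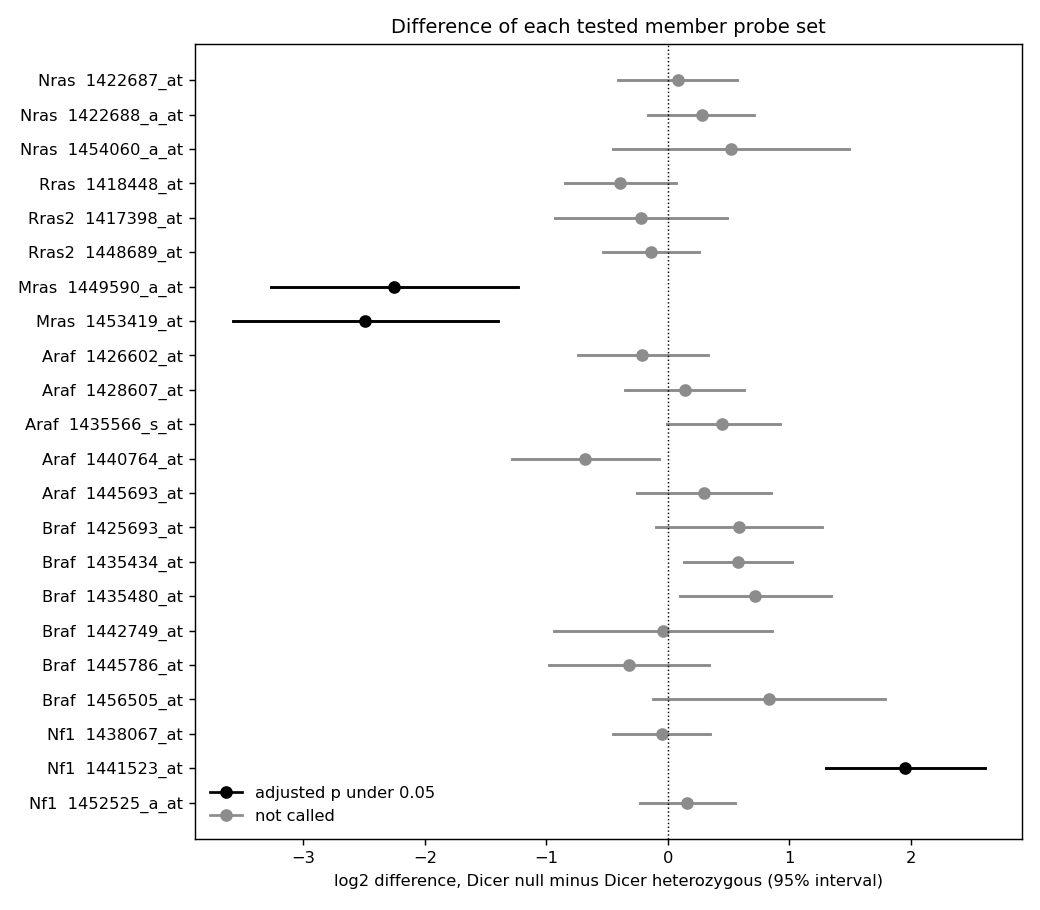
Log2 difference of Dicer null minus Dicer heterozygous (x axis) for each of the 22 tested member probe sets (y axis), with points for the estimate and bars for the 95% interval of limma's moderated test, not adjusted for the number of probe sets. Both Mras intervals lie wholly below 0, from -3.58 to -1.23 between them, and that of the called Nf1 probe set lies above 0, from 1.3 to 2.61.

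Nf1 encodes neurofibromin, the GTPase-activating protein whose loss leaves Ras in its active form and which is mutated in tumours of the nerve sheath. Its brightest probe set, 1438067_at, read 5.34, 5.58 and 5.54 in heterozygous and 5.59, 5.37 and 5.35 in null arrays. The groups overlapped and the log2 difference was -0.05 (SE 0.16, 95% interval -0.45 to 0.35, limma adjusted p = 0.885), or 0.02 with arrays centred on their medians. Probe set 1452525_a_at read 3.08, 3 and 3.19 against 3.41, 3.16 and 3.17, close to the minimum, with a difference of 0.16 (95% interval -0.23 to 0.55).

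The third Nf1 probe set, 1441523_at, read 1.92, 2.22 and 1.99 in heterozygous and 3.49, 4.06 and 4.44 in null arrays. All heterozygous values lay under 3 and all null values above it. The log2 difference was 1.95 (SE 0.27, 95% interval 1.3 to 2.61, limma adjusted p = 0.0272). As a fold, the null mean lay 2-fold above a log2 value of 3, which was used because lower values depend on the background model. This fold is an estimate from the null mean and not a lower limit. The mean of 1441523_at over the 6 arrays, 3.02, lay just inside the minimum, and 1458641_at of Braf, at 2.86, lay just outside. With values under 3 set to 3, a setting added after the data were seen, the difference was 1 and the limma adjusted p 0.0945.

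The Nf1 call, like that of Mras, depended on single arrays. Without 1 array the difference of 1441523_at was 1.73 to 2.21. In limma it passed without heterozygous replicate 3 (adjusted p = 0.0443) and null replicate 1 (0.039). It did not pass without heterozygous replicates 1 and 2 (0.056 and 0.0765) or null replicates 2 and 3 (0.103 and 0.0871). With the mean of all tested Nf1 probe sets as the gene's value, the difference was 0.69 and the adjusted p 0.0563 in limma. That mean includes 1441523_at itself, and the other probe sets gave -0.05 and 0.16. It is thus no separate check of the call.

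The other genes of Ras signalling were counted in 7 lists by role, with 1 probe set per gene. Of 90 genes listed, 85 were named on the arrays and 65 were tested. None of the 65 was called by limma in either direction, beside 3.46% of all 11425 tested genes, and none of their 118 tested probe sets was called. At an unadjusted p under 0.05, 7 were higher and 6 lower, where the share among all genes was 24.0% (10.5% higher and 13.5% lower). Differences were above 0 in 33 and below 0 in 32, with a median of 0.01 against -0.01 over all tested genes. In 5 genes, namely Rhebl1, Rasl11b, Sos2, Rasa4 and Dab2ip, the limma adjusted p lay between 0.05 and 0.06. Rasl11b and Dab2ip are named here because of their values, not by the rule that selected the other genes.

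Among 15 tested Ras-like GTPases outside the members, none was called. The nearest was Rhebl1, a relative of the mTOR activator Rheb, with a log2 difference of 2.24 (SE 0.42, 95% interval 1.21 to 3.27, limma adjusted p = 0.0512). It read 6.42, 5.57 and 5.34 in heterozygous and 7.27, 8.3 and 8.49 in null arrays. Rasl11b, a small GTPase of little-known function, gave 2 (SE 0.41, limma adjusted p = 0.0573).

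Exchange factors and GTPase-activating proteins act on the GTP load of Ras from opposite sides. Of 3 tested exchange factors the nearest to a call was Sos2, at 0.92 (SE 0.17, 95% interval 0.5 to 1.35, limma adjusted p = 0.0512), while its paralog Sos1 stood at -0.06 (-0.47 to 0.35). Sos2 read 9.82, 10.04 and 10.12 in heterozygous and 10.73, 11 and 11.02 in null arrays, with no overlap. The third, Rasgrp3, named for its values, read 9.23 in heterozygous replicate 1 and 1.97 to 4.24 in the other arrays. Sos2 was called in 7 of the 17 alternative settings and in none of the 6 fits without 1 array. These counts were 10 and 1 for Mras, 5 and 0 for Rhebl1, 4 and 1 for Rasa4, 3 and 0 for Dab2ip, and 2 and 1 for Rasl11b. Among 10 tested activating proteins and negative regulators none was called. Rasa4, which calcium recruits to the membrane, gave -2.25 (SE 0.45, limma adjusted p = 0.055), with 7.53, 6.96 and 5.78 in heterozygous and 4.28, 4.74 and 4.49 in null arrays. The groups did not overlap, and heterozygous replicate 1 was again the highest. Dab2ip gave -3.91 (SE 0.79, limma adjusted p = 0.0561), at 8.1, 7.51 and 8.66 in heterozygous and 5.44, 4.68 and 2.41 in null arrays. Some genes of the list stood higher in every null array, namely Rasa3 (0.92, SE 0.27, limma adjusted p = 0.116), Spred2 (0.59, SE 0.18, limma adjusted p = 0.118) and Spred1 (0.28). Rasal2 (-0.69, SE 0.18, limma adjusted p = 0.0927) and Lztr1 (-0.58, SE 0.19, limma adjusted p = 0.146) stood lower in every null array. Like Dab2ip, these genes are named for their values. Without overlap between groups, 3 of the 10 stood higher and 4 lower in null arrays, beside 1704 and 1971 of all 11425 tested genes. Differences were above 0 in 6 of the 10, with a median of 0.28. At an unadjusted p under 0.05, 2 of the 10 were higher and 4 lower, beside 10.5% and 13.5% of all tested genes.

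Adaptors, kinases, effectors and membrane-processing enzymes held no call either. Of 12 tested adaptors and scaffolds the smallest p was that of Ksr1, a scaffold of the Raf, Mek and Erk cascade (0.96, SE 0.31, limma adjusted p = 0.139). Shoc2, picked after its values were seen because it is the partner of Mras, read 10.27, 10.57 and 10.64 in heterozygous and 10.78, 10.83 and 10.83 in null arrays and had a difference of 0.32 (95% interval -0.09 to 0.73). The kinase Map2k2, or Mek2, gave -0.53 (SE 0.17, limma adjusted p = 0.132), and Map2k1 gave 0.03 (95% interval -0.37 to 0.42). They were the 2 tested kinases of the 5 listed, and the others were not among the genes named on the arrays. Of 14 other effectors Pik3cb, a catalytic subunit of phosphoinositide 3-kinase, came nearest (0.83, SE 0.23, limma adjusted p = 0.102). Of 9 enzymes and carriers that prepare Ras for the membrane, the smallest p was that of Rce1, the protease that trims farnesylated Ras (0.21, SE 0.15, limma adjusted p = 0.444).

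**Figure D4:**
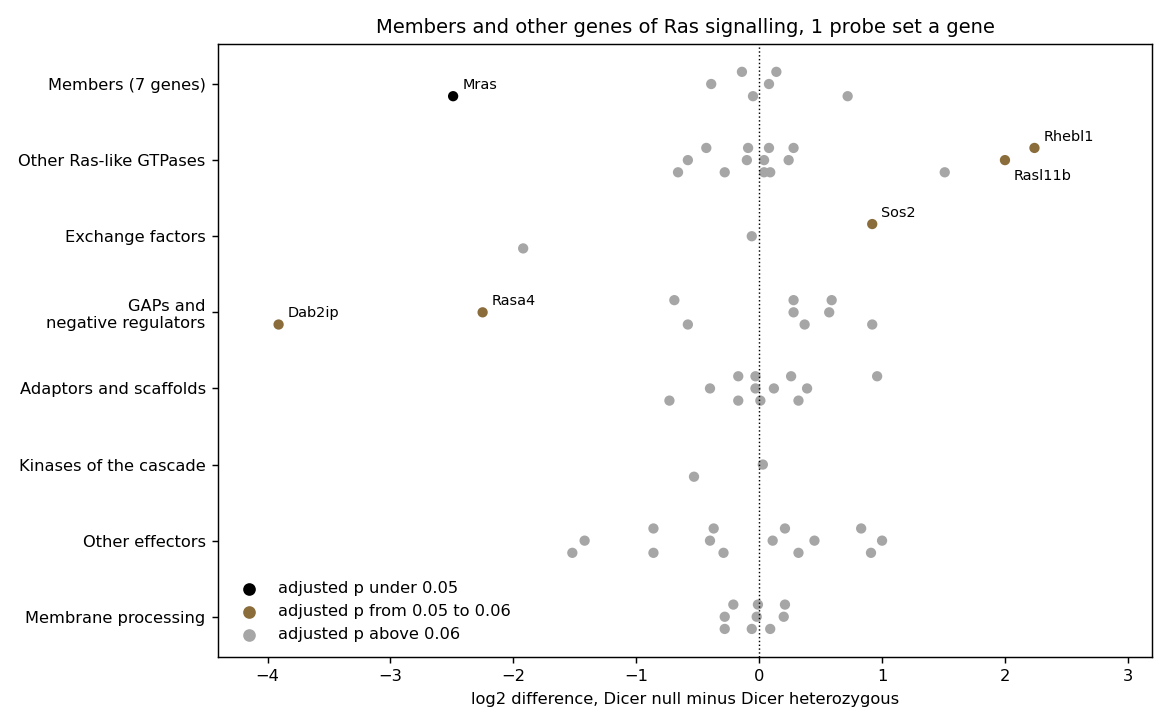
Log2 difference of Dicer null minus Dicer heterozygous (x axis) for the 7 member genes and the 65 tested genes of 7 Ras signalling lists (y axis), each point 1 gene by its brightest tested probe set. Mras, at -2.49, is the single black point (adjusted p under 0.05), and Rhebl1, Rasl11b, Sos2, Rasa4 and Dab2ip (brown) have adjusted p-values between 0.05 and 0.06.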

How the data were processed

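The table deposited by the authors gives a log2 value for each probe set in 6 arrays. It was made with GCRMA 2.20.0 in R 2.11.1, per the submitters' processing notes. GCRMA subtracts a background modelled from probe sequence, applies quantile normalization and combines probes into probe sets. Settings, chip definition and filters: not given in the sources used here. The log2 scale is read from the range of the values. Quantile normalization removes an overall shift in RNA between groups, and array medians were 3.32 to 3.43. No 2 arrays were identical, and the labels name no batch.

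Names came from the platform annotation, which gives 1 symbol for 34945 probe sets, several for 932 and none for 9160. Only the first kind was used. By Entrez ID, 34741 were found in the RefSeq genes of GRCm38.p6, and 0 symbols changed. No coordinates were used.

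Dicer null was compared with Dicer heterozygous with limma 3.58.1 in R 4.3.3 (lmFit and eBayes, no block, two-sided). A mean of at least 3 over the 6 arrays left 24385 probe sets and 11425 genes, and the brightest tested probe set stood for a gene. The script was tested on simulated data. The members and the gene lists were chosen with earlier results of these data known. The genes named are all members, of each pathway list up to 4 called genes or else the gene with the smallest p, and the 3 genes nearest to the member gene with the smallest p, Riken and predicted genes skipped. Pathway genes named outside this rule are marked or stand beside one of these as its paralog. Marker genes other than the highest of a list were named for their values. The 17 alternatives are described in the closing section, and those that leave out 1 array kept the tested probe sets. Figures were drawn with matplotlib 3.10.9.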

Additional observations from a re-analysis of the deposited data

How the results depend on the processing

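In limma 756 probe sets, 395 genes, 3 member probe sets, 1 member gene and 0 pathway genes were called (13 pathway genes at an unadjusted p under 0.05). Ordinary t statistics gave 0 of each (4873, 2442, 5, 1 and 16 at an unadjusted p under 0.05). Array weights gave 2949 probe sets, 1496 genes and 9 pathway genes. Quantile normalization again gave 740 probe sets, 380 genes, 2 member probe sets, 1 member gene and 0 pathway genes. Representing genes first by probe sets without an s or x suffix gave 394 genes, 1 member gene and 0 pathway genes. No minimum mean gave 1 member probe set, 0 member genes (3 at an unadjusted p under 0.05) and 1 pathway gene, Sos2. Pathway calls were 2 with a minimum of 4, 4 with trend and robust moderation, 2 with centred arrays, 2 with the floor at 3 (added after the data were seen) and 3 with the mean of a gene's probe sets. Without 1 array there were 45 to 857 probe sets, 31 to 465 genes, 0 to 3 member probe sets, 0 to 1 member genes and 0 to 2 pathway genes. Of all probe sets, 500 and 107 were called without heterozygous replicates 1 and 2, and 207, 45 and 60 without null replicates 1, 2 and 3. The causes were not tested.

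The pairing of replicate numbers was checked by correlating deviations from the group means, which gave -0.06, 0.11 and 0.24 for the 3 pairs. Of 6 arrays, 3 were closest to the array of their own number, and the numbers were not taken as pairs. In the fit with a replicate block, 116 probe sets, 73 genes and 1 member probe set were called, Mras 1453419_at staying past the threshold (limma adjusted p = 0.0484) while Mras 1449590_a_at (0.0613) and Nf1 1441523_at (0.0695) did not.

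Of 446 member differences under alternatives, 403 kept direction and side of the threshold, 31 kept direction but lost the call and 12 reversed, none of the 12 being of a called value. Most of the 446 belong to probe sets that were not called, and genes were counted beside their probe sets. The call was kept in 8 of 15 alternatives for Mras 1453419_at, 5 of 15 for Mras 1449590_a_at and 7 of 14 for Nf1 1441523_at. The reversals were those of Nras 1422687_at (-0.1 with array weights, -0.01 to 0.21 without 1 array), Braf 1442749_at (0.02 centred, 0.28 with array weights, -0.29 to 0.3 without 1 array) and Nf1 (0.02 centred, 0.69 with the mean of its probe sets). The mean for Nf1 includes its called probe set 1441523_at. Signal over background limits what the dim probe sets of Braf and Nf1 can show.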
